A study of Rattus norvegicus with 66 samples.

Results

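Potassium channel genes were examined in dorsal hippocampus of Long Evans rat pups on postnatal day 6. The genes were taken by symbol (Kcn followed by a letter and a digit, or a symbol starting with Kcnab, Kcnip, Kcnma, Kcnmb, Kcnn or Kcnt) and chosen by their mean level, which had to reach 1 CPM (counts per 1000000 counts of a library) over the 66 count tables. This left 74 of 94 entries so named, among 37777 genes listed, of which 14708 reached that level. The rule thus used the levels themselves, and the levels below are descriptions. Just inside the threshold were Kcnh5, with a mean of 1.02 CPM, and Kcnq1, with 1.08 CPM. Just outside were Kcnk12, listed as 2 entries with 0.963 and 0.445 CPM, and Kcnk5, with 0.771 CPM. Kcnh5 owed its place in part to the groups in which it was high: without the males exposed to Aroclor 1254 at 5 mg/kg its mean was 0.90 CPM over 58 pups. Its mean was also below 1 CPM (0.949 to 0.969 CPM) without the males exposed to the high dose of bisphenol A or of chlorpyrifos or without the females of the feeding control. Its differences in these groups are therefore given as descriptions, without a p. No other member fell below 1 CPM when a single group was left out.

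The 66 libraries came from 64 pups (41 males and 23 females) of 44 litters, in 13 groups. Aroclor 1254, a commercial mixture of polychlorinated biphenyls, was given to dams in soy-free chow at 5 mg/kg (Aro5: 6 males of 5 litters, 5 females of 4 litters) or 0.5 mg/kg (Aro0.5: 4 males), and bisphenol A in the same way at 5 mg/kg (BPA5: 7 males, 4 females) or 0.5 mg/kg (BPA0.5: 4 males), from before mating until the pups were killed. Chlorpyrifos, an organophosphate insecticide, was injected subcutaneously into dams at 3 mg/kg (CPF3: 7 males, 4 females) or 1 mg/kg (CPF1: 4 males). Feeding controls received the chow alone (CONF: 4 males, 5 females) and injection controls the vehicle alone (CONSC: 5 males, 5 females), which the study's methods give as dimethyl sulfoxide and the sample labels as saline. All treatments were thus given to the dams, and control means both control groups combined within a sex.

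Potassium channels let potassium ions leave or enter cells and so set the resting potential and the shape and rate of action potentials. Voltage-gated (Kv) channels open on depolarisation: Kv1 channels act mainly in axons, Kv2 at the soma, Kv3 in fast-spiking neurons and Kv4 in dendrites, while Kv7 channels carry the M-current that damps repetitive firing of hippocampal neurons. Calcium- and sodium-activated channels act after spikes, inward rectifiers and 2-pore channels hold the resting potential, and auxiliary subunits alter gating and trafficking. In rodent hippocampus many of these channels are still maturing during the first postnatal weeks.

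Library totals ran from 10644138 to 86206550 counts with a median of 20740650. Library titles were written in more than 1 form, whose meaning the sources used here do not give. In males 9 of 10 control libraries and all 12 low-dose libraries ended in an upper-case Y (form A), whereas all high-dose libraries ended in a lower-case y (form B), so that form and high dose could hardly be told apart. A second control library of CONF N2-2y, of form B, was the only exception. In female controls, whose titles all end in a lower-case x, form A (5 libraries) has a low line after the group and form B (6 libraries) lacks it. The 13 high-dose female libraries, all with the low line, were given no form. The 2 sexes thus differ in the feature that was read, and whether it marks the same thing in both is not known. The methods give a dissection window of 10.30 to 13.20 h, and 11 libraries were labelled with times outside it. The dissected piece held some laterally adjacent neocortex, and among the markers of 12 lists of cell types and regions only Mobp, of oligodendrocytes, was at 0, in 1 pup. The hippocampal list (Prox1, Wfs1, Grik4, Zbtb20, Neurod6) summed to between 134 and 388 CPM in a pup. In such bulk tissue fewer cells of a type and less RNA per cell cannot be told apart.

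The 74 members together took 2197 ± 170 CPM (SD, n = 64 pups), with a range from 1861 to 2622 CPM. The Kv7 genes held the largest share of this sum, 21.2%, followed by the auxiliary subunits with 11.7%, the inward rectifiers with 10.5%, Kv4 with 9.77%, Kv1 with 9.69%, the calcium- and sodium-activated channels with 9.39% and Kv3 with 8.18%. The 2-pore channels held 7.36%, the EAG, ERG and ELK channels 7.10%, the silent Kv subunits 3.65% and Kv2 1.38%. These are shares of counts and were not corrected for transcript length, so that levels are compared below only within a gene.

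Kcnq3, a subunit of the M-channel, ran from 22.6 ± 5.10 CPM in Aro0.5 males (n = 4) to 59.5 ± 25.6 CPM in Aro5 males (n = 6), and Kcnq5, a further M-channel subunit, from 29.0 ± 3.61 CPM to 50.1 ± 6.84 CPM in the same groups. The SD of Kcnq3 in Aro5 males was itself larger than its mean in Aro0.5 males. The summed level of the Kv7 members lay between 420 ± 46.4 CPM in BPA0.5 males and 505 ± 42.0 CPM in CONF females (n = 5).

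All 6 Kv1 members were present throughout. Kcna6 ran from 101 ± 16.8 CPM in CPF3 females (n = 4) to 131 ± 15.4 CPM in Aro0.5 males (n = 4), and Kcna2, the axonal Kv1.2 subunit, from 61.0 ± 13.9 to 85.7 ± 19.0 CPM. Kcna1, Kcna3 and Kcna5 stayed below 4 CPM in every group mean. The Kv4 genes Kcnd2 and Kcnd3, which carry the dendritic A-type current, had group means from 77.7 ± 7.70 to 110 ± 31.5 CPM and from 87.4 ± 19.1 to 121 ± 9.07 CPM.

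Of the Kv3 genes, Kcnc1 and Kcnc4 had higher means in each of the 5 female groups than in any of the 8 male groups, while Kcnc2 did not. The summed level of the Kv3 members lay between 140 ± 23.3 CPM in BPA0.5 males and 236 ± 23.3 CPM in BPA5 females. The silent subunit Kcng1, which joins Kv2 channels, lay between 19.6 ± 2.02 and 43.1 ± 4.52 CPM in BPA0.5 males and Aro5 females. Kcnh2, the ERG1 channel, had its lowest mean, 24.2 ± 8.78 CPM, in BPA0.5 males and its highest, 61.9 ± 3.73 CPM, in BPA5 females. The lowest mean of both Kcng1 and Kcnh2 was that of BPA0.5 males.

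Among the calcium- and sodium-activated genes, Kcnn1, which encodes the small-conductance channel SK1, ran from 43.4 ± 3.71 CPM (BPA0.5 males) to 64.3 ± 8.03 CPM (Aro5 females). Kcnma1, the pore of the large-conductance BK channel, ran from 22.3 ± 2.71 CPM in Aro0.5 males to 39.4 ± 9.79 CPM in Aro5 males. The inward rectifier Kcnj6, a subunit of channels opened by G proteins, ran from 53.2 ± 18.5 CPM (CPF3 females) to 77.8 ± 23.6 CPM (BPA5 females). The 2-pore channel Kcnk2, the mechanosensitive TREK1, ran from 52.8 ± 9.32 CPM (CPF3 females) to 65.4 ± 11.0 CPM (Aro5 males). Among auxiliary subunits Kcnab2, which binds Kv1 channels, ran from 63.7 ± 21.3 to 101 ± 27.6 CPM in BPA0.5 males and Aro5 females.

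The members not described elsewhere are given here by their range over the 64 pups. Of the 8 named Kv1 genes 6 were members, among them Kcna4, a subunit of A-type channels, at 8.47 to 27.7 CPM and Kcna1 at 0.928 to 4.91 CPM. Kcnb2 of Kv2 lay between 1.99 and 5.76 CPM, Kcnc2 of Kv3 between 9.15 and 32.3 CPM and Kcnd1 of Kv4 between 13.3 and 22.1 CPM. Of 10 silent subunits 7 were members, of which Kcnv1 lay between 3.97 and 26.6 CPM, Kcns2 between 1.35 and 6.75 CPM and Kcns3 between 0.868 and 5.99 CPM. Kcnq1, known from heart and epithelia, lay between 0.315 and 2.41 CPM. Of the EAG, ERG and ELK genes, all 8 of them members, Kcnh4 lay between 11.5 and 37.4 CPM, Kcnh6 between 3.81 and 10.9 CPM and Kcnh8 between 2.14 and 7.24 CPM.

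Auxiliary subunits contributed 9 of 12 named genes. The calcium-binding Kv4 partners Kcnip1, Kcnip3 and Kcnip4 lay between 45.6 and 77.3 CPM, 20.7 and 47.6 CPM, and 6.29 and 14.8 CPM, and the beta subunit Kcnab1 between 17.4 and 63.4 CPM. Of 12 calcium- and sodium-activated genes 8 were members, with Kcnn2, the SK2 channel, at 9.62 to 22.9 CPM and the BK subunit Kcnmb2 at 1.94 to 5.74 CPM. Inward rectifiers contributed 13 of 15 genes. Among them the G protein-opened Kcnj9 and Kcnj5 lay between 20.8 and 78.3 CPM and 1.00 and 5.04 CPM, the glial Kcnj10 and Kcnj16 between 11.7 and 29.0 CPM and 4.65 and 15.5 CPM, the KATP pore Kcnj8 between 2.86 and 5.68 CPM, and Kcnj14 between 8.24 and 18.3 CPM. Of 15 2-pore genes 9 were members, with Kcnk10 at 21.5 to 68.3 CPM, Kcnk13 at 2.27 to 4.99 CPM and Kcnk16 at 0.965 to 7.54 CPM.

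**Figure D1:**
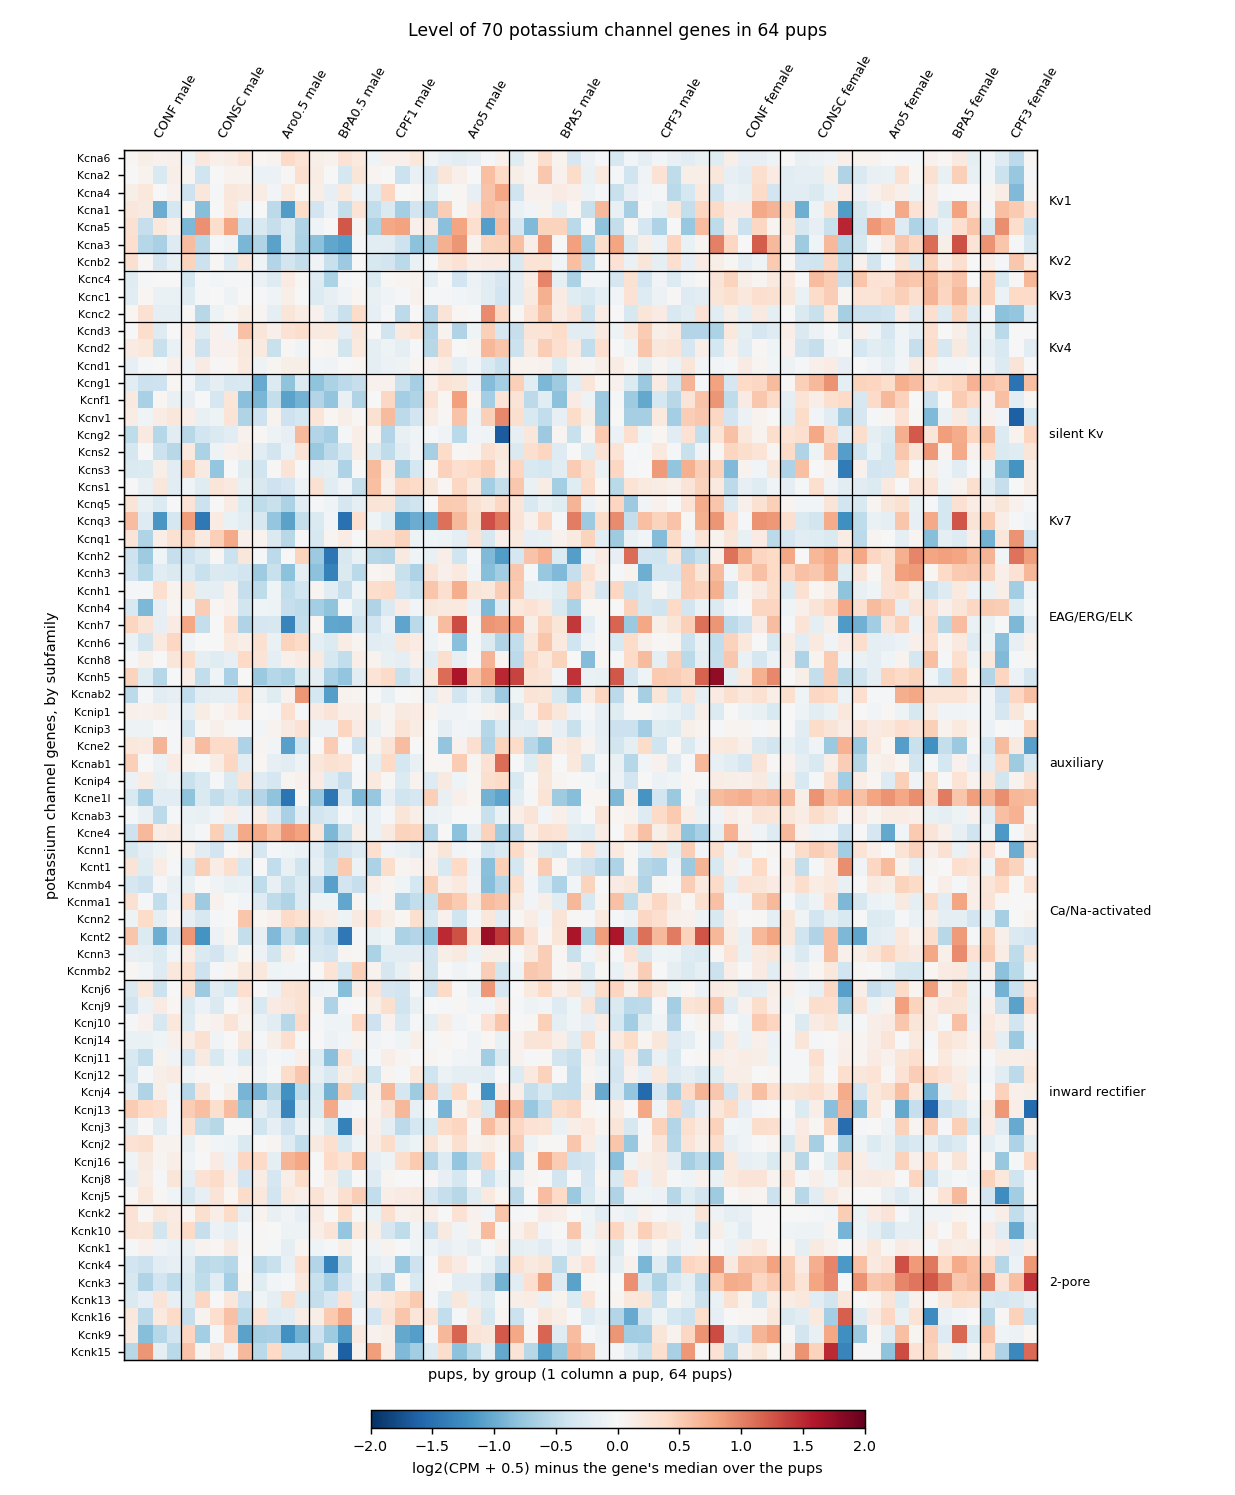
Heat map of 70 potassium channel genes (vertical axis, by subfamily) in the 64 pups (horizontal axis, by group), coloured by the difference of log2(CPM + 0.5) from the median of the gene over all pups. Most variation runs between single pups of a group, and the clearest blocks are the female pups in genes such as Kcne1l, Kcnk3, Kcnh2 and Kcnh3.

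Pups of the same group differed in most members. The within-group SD on the log2 scale had a median of 0.32 over the 74 members, from 0.11 for the 2-pore channel Kcnk1 to 0.67 for its relative Kcnk15. It was 0.5 or more in 8 members (Kcnk15, Kcnt2, Kcnq3, Kcna5, Kcnk9, Kcnh7, Kcnj13 and Kcnh5) and below 0.25 in 18. The highest group mean was at least 2 times the lowest in 15 members, and the median ratio over all members was 1.61.

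Several members followed the summed level of a marker list of a region or cell type across pups. Pearson's r and Spearman's rho were computed for 74 members and 12 lists, 888 relations in all, over 64 pups that in part share litters, so that the p-values are too small. The permutation test with 100000 resamples, two-sided, gave 379 relations with a Benjamini-Hochberg adjusted p under 0.05. For each of the relations given with r below, except that of Kcnh5 and unless another p is stated, p was 1e-05, the smallest these permutations can give, with adjusted values of 8.22e-05 for Pearson's r and 9.06e-05 for Spearman's rho. Kcnh5 reached the level of the rule in part through groups in which it was high. Its r and rho are therefore given as descriptions, without a p.

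Kcne2 and Kcnj13, an auxiliary subunit and an inward rectifier (Kir7.1) both known from the choroid plexus epithelium, followed choroid plexus markers (Ttr, Folr1, Clic6, Kl, Aqp1, Sostdc1). For Kcne2 r was 0.916 and rho 0.876 (r = 0.899 without the 2 pups farthest from the median of the marker sum, 0.884 in 41 males and 0.968 in 23 females). For Kcnj13 r was 0.849 and rho 0.758 (0.802 without these 2 pups, 0.771 in males, 0.941 in females). Across all pups Kcnj13 varied between 3.41 and 21.4 CPM, and 5 members had r of 0.5 or more with this list. The promoter of Kcnj13 is shown beside those of other members printed further on, as RefSeq's 250 bases before the gene start in build GRCr8 (strand -, chr9:95518987-95519236), and holds no GGGCGG on either strand:
Kcnj13: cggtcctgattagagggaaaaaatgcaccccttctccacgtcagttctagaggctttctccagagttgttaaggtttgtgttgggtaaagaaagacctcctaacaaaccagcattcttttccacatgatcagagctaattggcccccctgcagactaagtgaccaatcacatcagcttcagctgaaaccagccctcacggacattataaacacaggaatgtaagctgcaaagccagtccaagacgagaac

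Kcnh1, the EAG1 channel, followed the neocortical list (6 genes, among them Tbr1, Cux2, Rorb, Fezf2 and Lamp5) with r = 0.910 and rho = 0.912 (0.904 without the 2 farthest pups, 0.918 in males, 0.913 in females), and so did Kcnq5 (r = 0.778, rho = 0.803), Kcnh5, the EAG2 channel (r = 0.752, rho = 0.721), and Kcnh7, the ERG3 channel (r = 0.746, rho = 0.689). Without the 2 farthest pups r was 0.772, 0.738 and 0.711 for Kcnq5, Kcnh5 and Kcnh7. In all, 16 members had r of 0.5 or more with the neocortical list. Kcnd3 followed thalamic markers (Prkcd, Rora, Lef1, Slc17a6, Gbx2, Rgs16; r = 0.891, rho = 0.889, 0.885 without the 2 farthest pups), as did Kcne4, a small auxiliary subunit (r = 0.848, rho = 0.839, 0.819 without them), among 10 such members.

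Kcnt1, the sodium-activated channel Slack, followed markers of GABAergic neurons (Gad1, Gad2, Slc32a1, Lhx6, Sst) with r = 0.918 and rho = 0.920 (0.905 without the 2 farthest pups, 0.917 in either sex), and Kcna5 followed the same list with r = 0.897 and rho = 0.896 and the striatal list (6 genes, among them Drd1, Drd2, Ppp1r1b, Adora2a and Rgs9) with r = 0.853 and rho = 0.830. Kcnk2 followed the striatal list with r = 0.770 and rho = 0.801. There were 5 members with r of 0.5 or more for GABAergic neurons and 8 for striatum. With the general neuronal list (Snap25, Rbfox3, Syt1, Tubb3) there were 17, among them Kcnk4, the TRAAK channel (r = 0.845, rho = 0.843), and Kcnh3, an ELK channel (r = 0.844, rho = 0.847). Without the 2 farthest pups r was 0.893 and 0.835 for Kcna5 with the 2 lists, 0.725 for Kcnk2, 0.811 for Kcnk4 and 0.851 for Kcnh3.

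Of the remaining lists, hippocampal subfields had 6 such members (Kcnk10, TREK2, with r = 0.622 and rho = 0.627), endothelium and mural cells 5 (Kcnab2 with r = 0.679 and rho = 0.636), microglia 3 (Kcnip3 with r = 0.649 and rho = 0.614), and astrocytes, oligodendrocytes and proliferating cells 2 each. Kcnj10, the glial Kir4.1, had r = 0.563 and rho = 0.504 with astrocytes (p for rho 3e-05, adjusted 0.000217) and r = 0.579 and rho = 0.503 with oligodendrocytes (p for rho 2e-05, adjusted 0.000154). Kcnj13 led the proliferating list with r = 0.594 and rho = 0.540 (p for rho 2e-05, adjusted 0.000154). Without the 2 farthest pups these values of r were 0.611, 0.653, 0.615, 0.485, 0.529 and 0.508. Within a sex, r of the relations named here lay between 0.378 (Kcnip3 in females) and 0.968, and within the males of 1 title form between 0.35 (Kcnj13 with proliferating cells) and 0.969. The 12 sums share counts, libraries and pieces of tissue, and their part in the differences below was not tested.

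**Figure D2:**
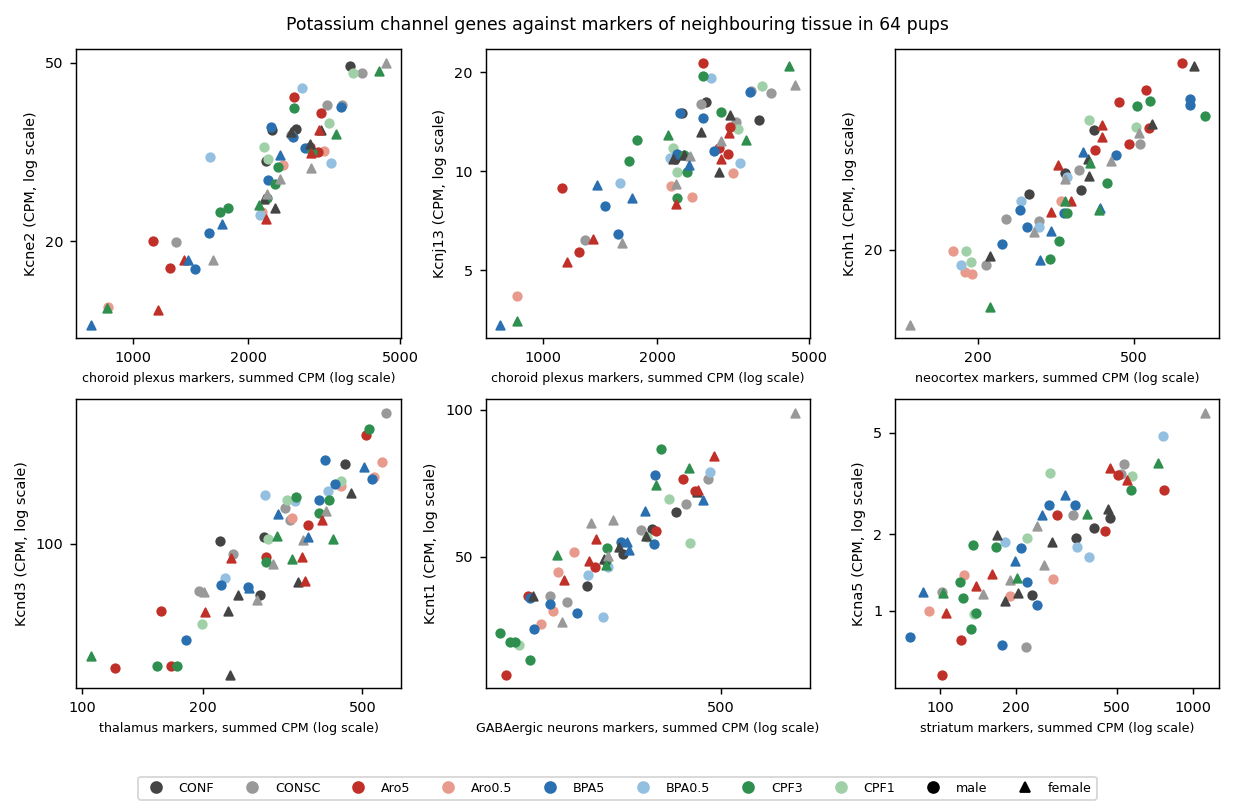
Levels of Kcne2, Kcnj13, Kcnh1, Kcnd3, Kcnt1 and Kcna5 (vertical axes, CPM, log scale) against the summed level of the choroid plexus, neocortex, thalamus, GABAergic neuron or striatum markers (horizontal axes, CPM, log scale), 1 point for each of the 64 pups. All 6 members increase with their list, with r from 0.849 to 0.918 on the log2 scale.

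The high-dose comparison asked whether exposure through the dam changed these genes in males. None of the 74 members passed an adjusted p of 0.05 (edgeR's quasi-likelihood test, adjusted by Benjamini-Hochberg over all genes) in Aro5, BPA5 or CPF3 males against the 9 male controls, where 0.195%, 0.189% and 0.159% of all genes tested did. At an unadjusted p under 0.05 there were 14 members in Aro5 males (18.9%, against 11.8% of all genes), 13 of them higher, 8 in BPA5 males (10.8% against 9.1%), all higher, and 7 in CPF3 males (9.46% against 12.6%), 4 of them higher. Without Kcnh5 these counts were 13, 7 and 6 of 73. DESeq2 called only Kcnh5, whose membership these males in part decide, in Aro5 males (0.616% of all genes) and 0 members in BPA5 and CPF3 males. The median log2 fold change of the members in Aro5 males was 0.11, beside -0.00 over all genes. By subfamily the medians in Aro5 males ran from -0.13 for the 3 Kv4 members to 0.30 for the 7 silent subunits, with 0.26 for Kv7 and 0.19 for both Kv1 and the EAG, ERG and ELK genes. The 3 groups share their controls.

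The largest difference in Aro5 males was that of Kcnh5 (gene15435), a slowly deactivating EAG-type channel. Its level was 0.930, 1.28, 1.68, 2.15, 2.96 and 3.30 CPM in the 6 Aro5 males, and 0.278, 0.655 and 1.17 CPM as lowest, median and highest of the 9 male controls. Only the lowest Aro5 pup lay within the controls' range, whose upper end was a CONF pup. The log2 fold change was 1.63 ± 0.39 (SE), and 1.68 ± 0.40 by DESeq2, both as descriptions, since Kcnh5 reached the level of the rule in part through these pups. The counts behind these values were low, from 3 to 92 in a pup over all groups.

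Kcnt2 (gene26944), the sodium-activated channel Slick, reached 2.74, 6.79, 13.4, 14.9, 15.6 and 18.3 CPM in Aro5 males, and from 2.01 to 10.0 CPM in male controls with a median of 4.24 CPM. The 4 highest Aro5 pups lay above every control and the others within their range. Its log2 fold change was 1.26 ± 0.37 (SE, adjusted p = 0.199 by edgeR's quasi-likelihood test). Kcnh1 followed with 0.47 ± 0.15 (adjusted p = 0.248 by the same test).

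Kcnq3 (gene17719) reached 17.3, 45.5, 55.5, 75.2, 76.9 and 86.8 CPM in Aro5 males and from 12.8 to 63.5 CPM, with a median of 30.5 CPM, in male controls. Kcnma1 (gene28892) reached 21.7, 34.2, 43.0, 44.5, 46.4 and 46.5 CPM and from 18.0 to 38.9 CPM, with a median of 29.3 CPM. For Kcnq3 3 of the 6 Aro5 males and for Kcnma1 4 of them exceeded all controls. Their log2 fold changes were 0.82 ± 0.30 (SE, adjusted p = 0.28) and 0.45 ± 0.17 (adjusted p = 0.292) by edgeR's quasi-likelihood test. Kcna6, which encodes Kv1.6, was the sole member that was lower at an unadjusted p under 0.05 (log2 fold change -0.18 ± 0.08, adjusted p = 0.34 by the same test).

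The neocortical markers moved with these genes. Their summed level was 398, 511 and 663 CPM (lowest, median, highest) in Aro5 males and 209, 334 and 517 CPM in male controls, with all 6 markers higher in Aro5 males at a median log2 fold change of 0.64, none of them called. Of these markers none was at 0 in any pup. Hippocampal subfield markers had 264 CPM as the median in Aro5 males and 299 CPM in controls. Title form moved with the groups as well. In males form as a covariate rests on the 1 form B control library of CONF N2-2y. With this covariate Kcnh5, Kcnt2 and Kcnq3 had log2 fold changes of 0.67, 0.69 and 0.41.

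**Figure D3:**
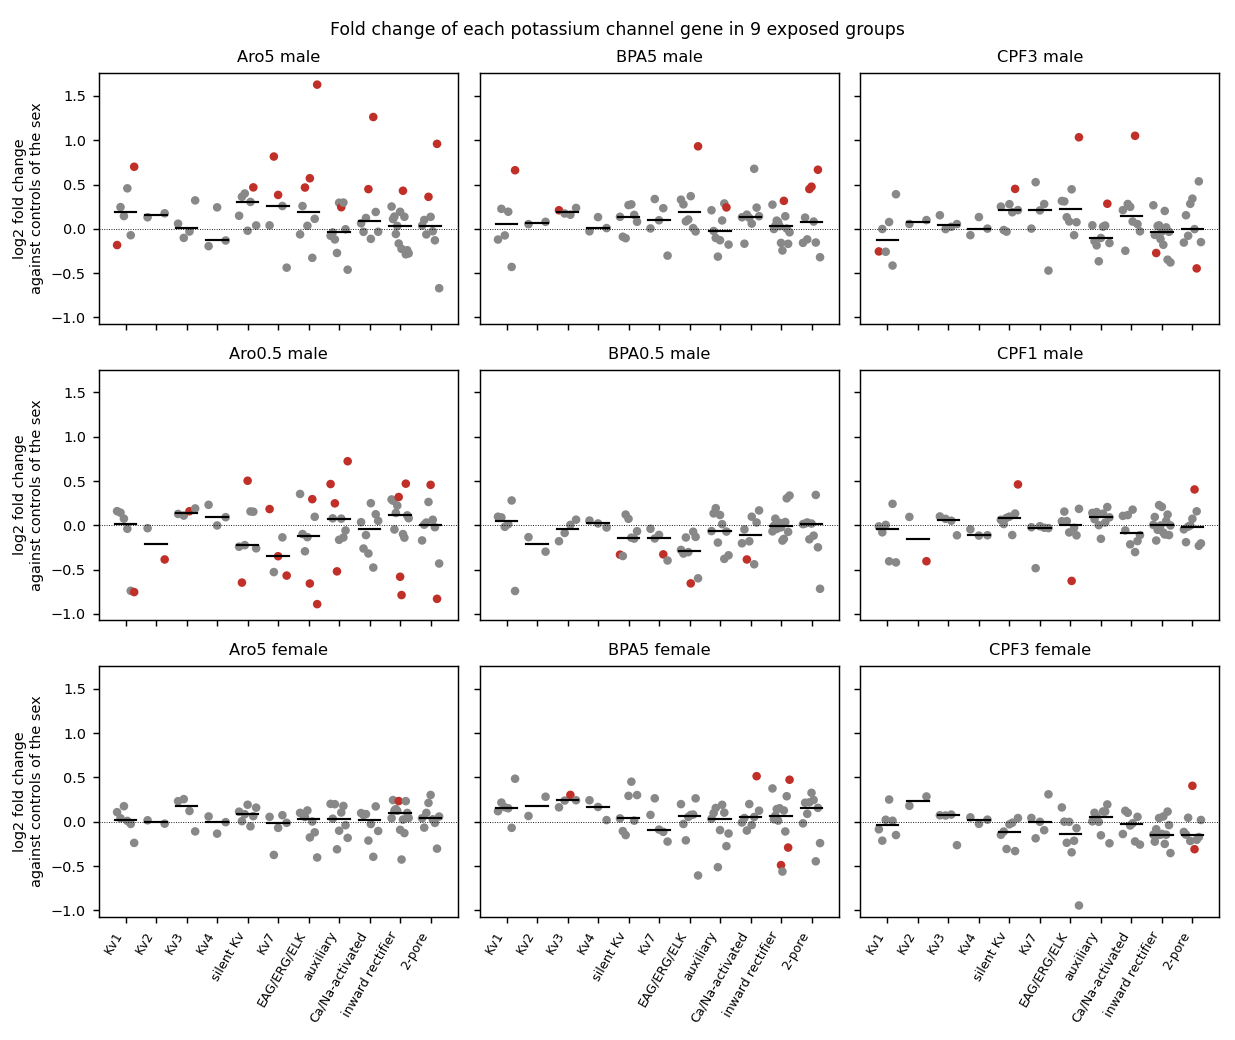
Log2 fold changes against controls of the same sex (vertical axis) of the 74 members in the 9 exposed groups (panels), by subfamily (horizontal axis), where red points had an unadjusted p under 0.05 and the line is the median of the subfamily. Points gather around 0 in all groups, with Kcnh5 at 1.63 in Aro5 males as the highest; none passed the adjusted threshold.

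Within the dissection window (4 Aro5 males, of which 2 share a litter, and 6 male controls), 7 of the 74 members were higher in Aro5 males at an adjusted p under 0.05 (9.46%, against 4.96% of all genes tested), and 22 at an unadjusted p under 0.05 (29.7% against 20.2%), 20 of them higher. Without Kcnh5, whose membership these pups in part decide, there were 6 of 73 (8.22%) and 21 (28.8%). By edgeR's quasi-likelihood test (Benjamini-Hochberg adjusted) these were Kcnt2 (log2 fold change 1.92 ± 0.41 SE, adjusted p = 0.0259), Kcnq3 (1.38 ± 0.32, 0.0275), Kcnj3, a G protein-opened inward rectifier (0.65 ± 0.16, 0.0297), Kcnk9, the acid-sensitive TASK3 (1.55 ± 0.38, 0.0300), Kcnma1 (0.76 ± 0.19, 0.0319) and Kcna3, the Kv1.3 channel (1.28 ± 0.35, 0.0412), beside Kcnh5 (1.89 ± 0.45). They come from 6 subfamilies.

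These calls depended on single pups. Leaving out 1 pup inside the window gave between 0 and 8 members: 0 without CONF N3-4y, CONF N4-7y, CONSC 11-4y, CONSC 8-4y, Aro5 120-1y or Aro5 120-2y, 3 without Aro5 116-6y, 5 without CONF N5-2y or Aro5 115-14y, and 8 without CONF N2-2y. Within the window the neocortical marker sum lay between 209 and 396 CPM in controls and between 398 and 663 CPM in Aro5 males, without overlap, and 6 of 6 markers were higher at a median of 0.76 on the log2 scale, with 1 of them called. Of these pups 120-1y and 120-2y share a litter, and a litter term could not be fitted with this 1 pair; without either of them 0 members were called. All 4 Aro5 pups had form B. The part of tissue composition and of title form in the difference was not tested.

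The 2 Aro5 males outside the window had the lowest levels among the 6 of Kcnh5, Kcnt2, Kcnq3, Kcnma1, Kcnj3 and Kcna3, with 108-1y the lowest in each. Among window controls Kcnq3 reached from 12.8 to 54.5 CPM, just below the lowest window Aro5 male at 55.5 CPM, and Kcnma1 from 18.0 to 37.1 CPM. For Kcnk9 the window pups reached 3.16, 4.49, 6.57 and 6.86 CPM, with 1.00 to 3.07 CPM in the window controls, so that the groups did not overlap. For Kcnj3 they reached 13.9, 14.1, 14.6 and 16.8 CPM, above controls at 7.54 to 10.8 CPM. For Kcna3 they reached 1.94 to 2.84 CPM, above controls at 0.455 to 1.78 CPM. These members were picked as those called in these same pups, where 4.96% of all genes were called. Their separation thus follows in part from that choice, and the share of all genes that separate is not given.

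The promoters of Kcnt2 and Kcna3 are shown as examples of members called within the window, beside that of Kcnh5, whose membership these pups in part decide. Each is the 250 bases before the gene start in build GRCr8, 5′ to 3′ on the strand of the gene, with GGGCGG or its complement CCGCCC, the core of the GC box, in capitals. Kcnh5 lies on strand - at chr6:99643857-99644106, Kcnt2 on strand + at chr13:54215057-54215306 and Kcna3 on strand + at chr2:197320074-197320323.
Kcnh5: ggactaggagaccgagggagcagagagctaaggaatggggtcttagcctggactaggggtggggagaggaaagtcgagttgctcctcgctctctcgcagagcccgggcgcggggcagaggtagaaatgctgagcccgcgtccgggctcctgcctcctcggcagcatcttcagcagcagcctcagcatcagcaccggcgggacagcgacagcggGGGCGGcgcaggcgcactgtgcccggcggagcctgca
Kcnt2: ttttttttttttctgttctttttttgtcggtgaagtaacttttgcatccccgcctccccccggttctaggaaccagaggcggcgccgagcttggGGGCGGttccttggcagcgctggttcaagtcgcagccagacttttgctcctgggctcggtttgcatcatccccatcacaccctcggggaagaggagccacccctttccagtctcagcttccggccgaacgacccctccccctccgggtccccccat
Kcna3: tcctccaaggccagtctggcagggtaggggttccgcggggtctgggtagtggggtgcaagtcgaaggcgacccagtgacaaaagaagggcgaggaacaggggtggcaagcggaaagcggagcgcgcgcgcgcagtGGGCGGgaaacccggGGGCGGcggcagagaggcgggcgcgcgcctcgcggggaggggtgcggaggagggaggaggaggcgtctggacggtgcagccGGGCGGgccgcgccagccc

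Kcnh5 and Kcnt2 each hold 1 such motif and Kcna3 holds 3, at G plus C contents of 67.6%, 59.2% and 73.6%. The motif was held by 30.5% of 33469 promoters in the table. An entry was found for 49 of the 74 members (66.2%), 25 of which held the motif. Since fewer than 80% had an entry, a comparison of the members with other genes is void. A match of letters is no binding site.

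**Figure D4:**
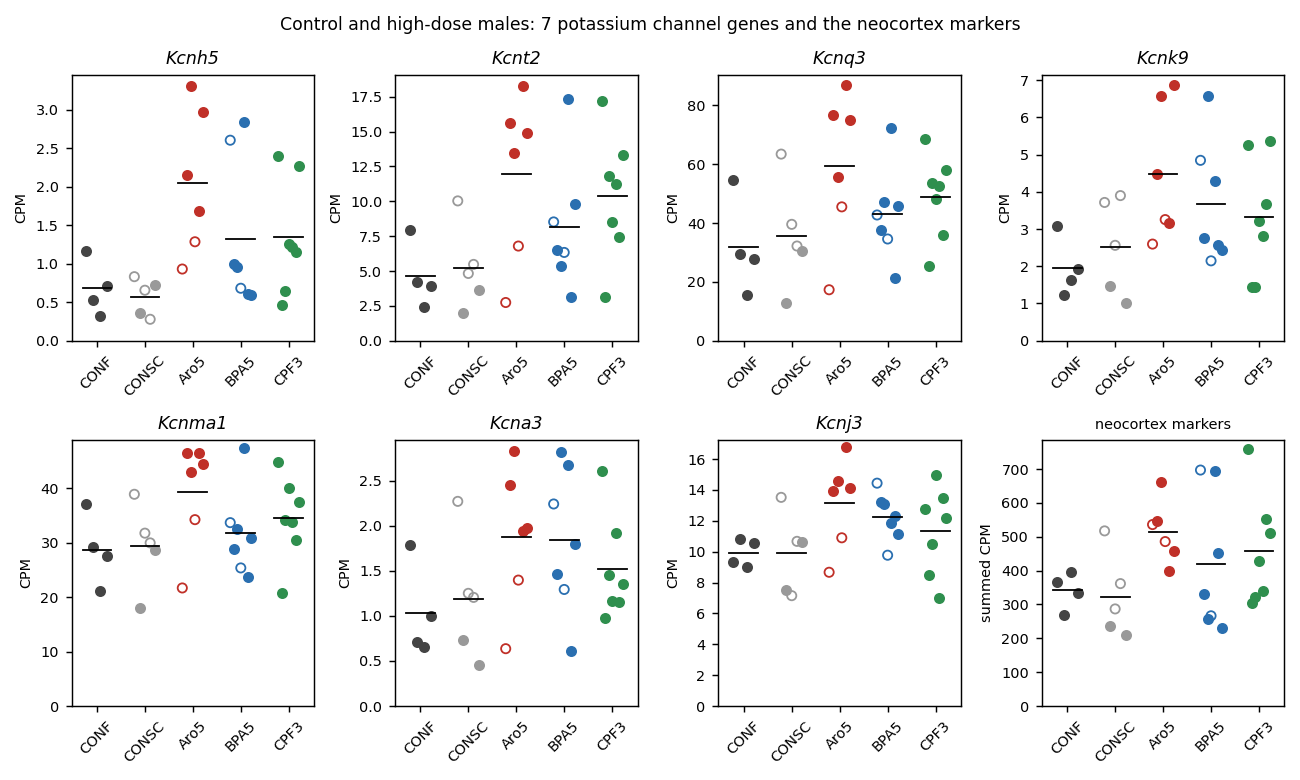
Levels of 7 members and the summed level of the neocortical markers (vertical axes, CPM) in male controls and in Aro5, BPA5 and CPF3 males (horizontal axes), 1 point for each pup, with open symbols for pups dissected outside the window and a line at the mean. Filled Aro5 symbols lie above the filled control symbols in all 8 panels, in the last by 398 against 396 CPM, and the open Aro5 symbols of Kcnh5, Kcnt2, Kcnq3, Kcnma1, Kcnj3 and Kcna3 lie below the filled ones. The 7 members were picked as those called in these same window pups, where 4.96% of all genes were called. Their separation here thus follows in part from that choice.

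In BPA5 males the smallest p was that of Kcnk4, a lipid- and stretch-gated 2-pore channel, whose level was 6.33, 10.4 and 11.4 CPM (lowest, median, highest of 7) beside 6.03, 6.90 and 9.10 CPM in 9 controls. The ranges overlapped, with 5 of 7 BPA5 pups above the highest control. The log2 fold change was 0.45 ± 0.17 (SE, adjusted p = 0.47) for Kcnk4 by edgeR's quasi-likelihood test (Benjamini-Hochberg adjusted), and Kcnh5 had 0.93 ± 0.40. The neocortical list had 5 of 6 markers higher in BPA5 males, at a median log2 fold change of 0.24, with sums of 231, 332 and 697 CPM (lowest, median, highest) beside 209, 334 and 517 CPM in male controls. The striatal list had 0 of 6 higher, at a median of -0.66. None of these markers was called, and their part in the values was not tested.

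In CPF3 males Kcna6 was at 91.6, 104 and 111 CPM (lowest, median, highest of 7) beside 108, 123 and 138 CPM in controls. Only 2 CPF3 pups lay within the controls' range and the rest below it. Its log2 fold change was -0.25 ± 0.07 (SE, adjusted p = 0.194), while Kcnt2 had 1.05 ± 0.36 (0.272) by edgeR's quasi-likelihood test (Benjamini-Hochberg adjusted), and Kcnh5 had 1.03 ± 0.40. In CPF3 males the neocortical list had 5 of 6 markers higher (median 0.45), with sums of 306, 428 and 759 CPM, and the striatal list 0 of 6 (median -0.80), none of them called. Their part in these values was not tested either.

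At the low doses none of the 74 members was called in males. In Aro0.5 males 21 members had an unadjusted p under 0.05 (28.4%, against 18.5% of all genes tested, with 0.124% called), 10 higher and 11 lower. In BPA0.5 males there were 4, all lower (5.41% against 8.58%, with 0.0434% called), and in CPF1 males 4 (5.41% against 2%, with 0% called). DESeq2 called 0 members in each. By subfamily the medians in Aro0.5 males ran from -0.35 for the 5 Kv7 members to 0.14 for the 4 Kv3 members, and in BPA0.5 males all 8 EAG, ERG and ELK members and all 5 Kv7 members had values below 0, with medians of -0.29 and -0.15. Some markers were lower there too. Of the neocortical markers 1 of 6 was higher, at a median of -0.36 and a median sum of 272 CPM beside 334 CPM in controls. The neuronal sum had a median of 2753 CPM beside 3015 CPM, but 2 of 4 neuronal markers were higher, at a median of -0.03. Their part in the values was not tested.

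Kcnj13 had the smallest p in Aro0.5 males, with 4.17, 8.36, 9.00 and 9.90 CPM, beside 6.19 to 17.5 CPM (median 15.0) in the 9 male controls. All 4 lay below 8 of the 9 controls, and only the lowest control overlapped them. Kcne4 was at 3.97, 4.55, 4.78 and 5.10 CPM beside 1.78 to 4.64 CPM, and Kcnk3, the acid-sensitive TASK1, at 5.46, 6.29, 6.44 and 7.66 CPM beside 3.90 to 6.73 CPM. Both overlapped the controls, with 2 Aro0.5 pups above every control for Kcne4 and 1 for Kcnk3. The log2 fold changes were -0.79 ± 0.24 (SE, adjusted p = 0.133), 0.72 ± 0.22 (0.137) and 0.46 ± 0.14 (0.145) by edgeR's quasi-likelihood test (Benjamini-Hochberg adjusted). Leaving out CONSC 8-4y made all of these pass the threshold, as the sole case among the pups left out.

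Markers of neighbouring tissue moved in Aro0.5 males as well. The choroid plexus list had 0 of 6 markers higher, at a median log2 fold change of -0.52, with sums of 859, 2318 and 3155 CPM (lowest, median, highest) beside 1293, 2677 and 3968 CPM in controls. The thalamic list had 5 of 6 higher (median 0.57), with sums of 334, 487 and 559 CPM beside 196, 285 and 573 CPM. The neocortical list had 0 of 6 higher (median -0.65), with 172, 189 and 326 CPM, and the striatal list 0 of 6 (median -0.91), with 90.5, 157 and 278 CPM beside 102, 343 and 531 CPM. The part of these lists in the values of Kcnj13, Kcne2 (-0.52), Kcne4 and the neocortex-following members Kcnh5 (-0.89), Kcnh7 (-0.66), Kcnk9 (-0.83) and Kcnq5 (-0.35) was not tested.

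In BPA0.5 males the smallest p was that of Kcnmb4, the neuronal beta subunit of the BK channel, with 16.1, 24.9, 25.1 and 26.5 CPM beside 25.8 to 34.5 CPM in controls (log2 fold change -0.39 ± 0.12 SE, adjusted p = 0.398 by edgeR's quasi-likelihood test). The highest BPA0.5 pup alone overlapped the controls. Kcnh7 had -0.66 on the log2 scale, with an adjusted p of 0.477 by the same test. In CPF1 males Kcns1, a silent subunit, was at 2.91, 3.65, 3.73 and 4.35 CPM beside 2.19 to 3.28 CPM (0.46 ± 0.16, adjusted p = 0.997 by the same test), so that 3 of the 4 lay above all controls. Kcnh7 had -0.63 and Kcnk13, the THIK1 channel, 0.40, with the same adjusted p of 0.997 by edgeR's test.

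High-dose females were compared with the 10 female controls. By edgeR's quasi-likelihood test (Benjamini-Hochberg adjusted) 0 of 74 members and 0% of all genes were called in each group, and DESeq2 called 0 members. At an unadjusted p under 0.05 there was 1 member in Aro5 females (1.35% against 3.23% of all genes), 5 in BPA5 females (6.76% against 4.08%) and 2 in CPF3 females (2.70% against 8.79%). Kcnj12, a strong inward rectifier, was at 13.8, 15.9, 16.6, 16.7 and 19.3 CPM in Aro5 females beside 11.4 to 17.3 CPM in controls, with overlap (0.23 ± 0.11 on the log2 scale), and was followed by Kcnip3 (0.20). Kcnn3, the SK3 channel, was at 6.30, 7.23, 10.2 and 11.7 CPM in BPA5 females beside 4.63 to 9.02 CPM (0.51 ± 0.17), followed by Kcnc1 (0.30) and Kcnj4 (-0.49), and Kcnk3 was at 7.95, 10.2, 13.5 and 18.9 CPM in CPF3 females beside 6.5 to 13.2 CPM (0.41 ± 0.19), followed by Kcnk13 (-0.31) and Kcnh5 (-0.95).

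Kcnq3 and Kcnma1, which the study's supplementary tables list from these same samples, were read in each remaining group. In males Kcnq3 lay between 21.3 and 72.2 CPM in BPA5, between 25.4 and 68.7 CPM in CPF3 and between 12.3 and 45.0 CPM in the 3 low-dose groups, all overlapping the male controls. In females it lay between 24.8 and 52.1 CPM in Aro5, between 27.7 and 85.6 CPM in BPA5 and between 33.6 and 51.1 CPM in CPF3, beside 14.8 to 66.7 CPM in female controls. Kcnma1 lay between 20.8 and 47.4 CPM in BPA5 and CPF3 males, between 14.2 and 31.1 CPM in low-dose males and between 23.9 and 52.0 CPM in exposed females, beside 15.8 to 47.0 CPM in female controls. Over all dissection times every exposed group, Aro5 males included, overlapped its controls in both genes. In these remaining groups the smallest adjusted p by edgeR's quasi-likelihood test was 0.342, for Kcnma1 in Aro0.5 males.

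Whether the response differed between the sexes was tested as an interaction of sex and treatment. None of the 74 members was called by edgeR's quasi-likelihood test for Aro5 (9 at an unadjusted p under 0.05, 12.2%, against 8.92% of all genes, with 0.0984% called), BPA5 (4, 5.41%, against 2.79%, with 0.0405% called) or CPF3 (2, 2.70%, against 5.6%, with 0.0463% called), and DESeq2 called 0. Without Kcnh5 the counts at an unadjusted p under 0.05 were 8, 3 and 1 of 73. For Kcnh5, which reached the level of the rule in part through these groups, the log2 fold change in females minus that in males was -2.05 ± 0.61 (SE) for Aro5, -1.54 ± 0.66 for BPA5 and -2.0 ± 0.67 for CPF3, given as a description. Kcnh5 was at 0.429, 0.564, 1.10, 1.16 and 1.17 CPM in Aro5 females and from 0.329 to 3.66 CPM in female controls, where 3.66 CPM came from a CONF pup. The female controls thus spanned the values of the Aro5 males. Kcnt2 had -1.67 for Aro5 and -1.29 for CPF3, and Kcnq3 -1.21 for Aro5, while Kcnab3, a Kv1 beta subunit, had -0.52 and Kcnk1 0.21 for BPA5 and Kcnq1 0.77 for CPF3. Kcnab3 was at 3.05 to 3.76 CPM in BPA5 females and at 3.16 to 4.31 CPM in BPA5 males, with overlap.

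Within the window 4 of 74 members were called in the Aro5 interaction (5.41%, against 3.49% of all genes) and 17 had an unadjusted p under 0.05 (23.0% against 16.8%). Without Kcnh5, whose membership these groups in part decide, there were 4 of 73 (5.48%) and 16 (21.9%). By edgeR's quasi-likelihood test (Benjamini-Hochberg adjusted) the female minus male difference was -2.48 ± 0.56 (SE, adjusted p = 0.0309) for Kcnt2, -1.99 ± 0.49 (0.0309) for Kcnq3, -1.08 ± 0.31 (0.0436) for Kcnma1 and -2.13 ± 0.61 (0.0448) for Kcnk9. Kcnt2, picked as called in these same pups, was at 2.30 to 6.16 CPM in all 5 Aro5 females, below the 4 window males at 13.4 to 18.3 CPM. The lowest Aro5 male, dissected outside the window, lay within the females' range, so that over all dissection times the sexes overlapped. Limma-voom called 2 members, Kcnt2 and Kcnq3, with litter as a replicate block (2.70%, against 1.99% of all genes) and the same 2 with no litter term (2.6% of all genes). Markers moved with these members: 0 of 6 neocortical markers had a female minus male difference above 0, at a median of -0.90 (-0.69 over all dissection times), and 5 of 5 microglial markers did, at a median of 0.35, none of them called. Their part in the difference was not tested. Leaving out 1 pup gave from 0 to 8 members, and 0 for 14 of the 24 pups: female CONF N4-3x, N1-8x and N8-1x, female CONSC 11-3x and 8-2x, male CONF N4-7y and N5-2y, male CONSC 11-4y and 8-4y, Aro5 females 115-13x, 115-7x and 120-3x, and Aro5 males 120-1y and 120-2y. It gave 1 without Aro5 female 116-1x, 2 without female CONF N2-4x or N3-1x, CONSC 13-8x, male CONF N3-4y or Aro5 male 115-14y, 3 without Aro5 male 116-6y, 5 without female CONSC 6-7x and 8 without female CONSC 9-1x or male CONF N2-2y.

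The control groups served to check their combination. Between CONF and CONSC males 0 of 73 members tested were called by edgeR's quasi-likelihood test (0.013% of all genes), with 2 at an unadjusted p under 0.05 (2.74% against 0.988%) and 0 by DESeq2, and between females 0 of 74 (0% of all genes), with 5 at an unadjusted p under 0.05 (6.76% against 4.29%) and 0 by DESeq2. Without Kcnh5, whose membership the CONF females in part decide, the unadjusted count between females was 4 of 73 (5.48%). Kcnj2, the strong inward rectifier Kir2.1, was at 10.7, 10.8, 12.6 and 12.9 CPM in CONF males and at 8.28, 9.14, 9.56, 9.83 and 10.5 CPM in CONSC males, without overlap (log2 fold change 0.32 ± 0.11, adjusted p = 1 by edgeR's test). Kcnh4 had -0.35. Among females Kcna3 was at 1.31, 1.89, 2.31, 3.13 and 3.66 CPM in CONF and at 0.606, 0.689, 1.2, 1.48 and 2.34 CPM in CONSC pups, with overlap (1.03 ± 0.37, adjusted p = 0.85 by edgeR's test), and Kcnh5 had 1.32 and Kcnma1 0.50.

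Control females differed from control males in 19 of 74 members (25.7%), 18 higher and 1 lower in females, by edgeR's quasi-likelihood test (Benjamini-Hochberg adjusted). This stands beside 30.9% of all genes tested, 17.8% higher and 13.1% lower, and 26 members (35.1%) had an unadjusted p under 0.05 against 40.8% of all genes. Without Kcnh5, whose membership the CONF females in part decide, 25 of 73 (34.2%) had an unadjusted p under 0.05. DESeq2 called 21 members (28.4%, against 32.6% of all genes). By subfamily the median log2 fold changes were -0.09 for Kv4, 0.11 for the inward rectifiers and 0.34 for the silent subunits. By both tests the share of members called was thus not above that of other genes. With control libraries of title form A only, 8 members were called (10.8% against 11.7% of all genes). All were higher in females, among them Kcne1l, Kcnk3, Kcnh3, Kcnh2, Kcng2 and Kcnc1. The form A libraries of pups that also had a form B library were included. Without the female CONSC 9-1x 30 members were called (40.5%, against 36.5% of all genes). Of all 64 pups this one had the lowest hippocampal and neocortical sums (both 134 CPM) and the highest sums of choroid plexus (4596 CPM) and GABAergic neuron markers (652 CPM), and the part of its composition in the counts was not tested. Limma-voom called 18 members with no litter term (24.3%, against 29.9% of all genes), where Kcnf1 did not pass, and 16 with litter as a replicate block (21.6%, against 27.1%), where Kcnc4, Kcnf1 and Kcna6 did not.

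The largest difference was that of Kcne1l (gene36687), an auxiliary subunit encoded on the X chromosome. Its level was 9.58, 14.1 and 16.7 CPM (lowest, median, highest of 10) in female controls and 4.82, 6.77 and 7.47 CPM in 9 male controls, without overlap. The log2 fold change was 1.15 ± 0.10 (SE, adjusted p = 8.5e-09) by edgeR's quasi-likelihood test. Over all groups the 23 females lay between 9.58 and 18.4 CPM and the 41 males between 2.88 and 12.3 CPM. The other auxiliary subunits called were the Kv1 beta subunits Kcnab2, at 70.2 to 102 CPM in females and 53.3 to 100.1 CPM in males (0.42 ± 0.10, adjusted p = 0.00291 by the same test), and Kcnab3, at 3.32 to 4.66 and 2.27 to 3.90 CPM (0.36 ± 0.09, adjusted p = 0.0044 by the same test). In both of them the ranges overlapped.

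Both called 2-pore channels were higher in females. Kcnk3 (gene14828) was at 6.5, 9.65 and 13.2 CPM in females and 3.90, 4.87 and 6.73 CPM in males, with an overlap of the lowest female alone with the highest male (log2 fold change 1.04 ± 0.13 SE, adjusted p = 1.09e-06 by edgeR's quasi-likelihood test). Kcnk4 was at 3.86 to 18.6 and 6.03 to 9.10 CPM (0.93 ± 0.20, adjusted p = 0.000979 by the same test), with the lowest value in a female. In the EAG, ERG and ELK family Kcnh2 rose in females (36.4 to 78.1 CPM, beside 22.1 to 42.7 CPM in males, 0.88 ± 0.13, adjusted p = 2.05e-05) and so did Kcnh3 (27.8 to 54.6 beside 22 to 28.4 CPM, 0.82 ± 0.11, adjusted p = 2.54e-06), by the same test.

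Among the Kv3 channels Kcnc1 (22.6 to 35.2 CPM beside 21.0 to 25.6 CPM in males, log2 fold change 0.38 ± 0.07 SE) and Kcnc4 (24.7 to 52.7 beside 26.5 to 34.1 CPM, 0.35 ± 0.10) were higher in females. Adjusted p-values were 0.000253 and 0.0135 by edgeR's quasi-likelihood test. Of the silent subunits, which assemble with Kv2 channels, 3 of 7 rose: Kcng1 (23.5 to 56.0 beside 22.2 to 30.8 CPM, 0.72 ± 0.14), Kcng2 (6.68 to 13.9 beside 5.20 to 9.02 CPM, 0.66 ± 0.13) and Kcnf1 (12.9 to 34.5 beside 10.2 to 21.9 CPM, 0.48 ± 0.16), with adjusted p-values of 0.000414, 0.000413 and 0.0245 by edgeR's test. Ranges overlapped for all 5 of these genes.

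Also higher in females were the inward rectifiers Kcnj4 (9.38 to 21.0 CPM in females beside 6.28 to 15.0 CPM in males, log2 fold change 0.55 ± 0.15 SE) and Kcnj11, the pore of KATP channels (13.5 to 18.5 beside 10.3 to 16.6 CPM, 0.30 ± 0.09), and the BK subunit Kcnmb4 (30.1 to 45.6 beside 25.8 to 34.5 CPM, 0.37 ± 0.08). Their adjusted p-values were 0.00671, 0.0107 and 0.00105 by edgeR's quasi-likelihood test. Kcna6 was the member that fell, with 96.2 to 126 CPM in females and 108 to 138 CPM in males (-0.14 ± 0.05, adjusted p = 0.0427 by the same test). No Kv4 gene was called. Markers moved between the sexes too. Called higher in females were 2 of 4 neuronal markers, 2 of 5 hippocampal markers, 2 of 5 of GABAergic neurons, 2 of 5 tested of oligodendrocytes, 1 of 6 of neocortex and 1 of 6 of endothelium and mural cells. Called lower were 2 of 5 astrocyte markers, 1 of 4 of proliferating cells and 1 of 5 of oligodendrocytes. The other 2 neuronal markers and 2 of the 5 GABAergic markers had values below 0. The neuronal sum was 2525, 3774 and 4338 CPM in females beside 2925, 3015 and 3476 CPM in males, where its part in the difference was not tested.

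**Figure D5:**
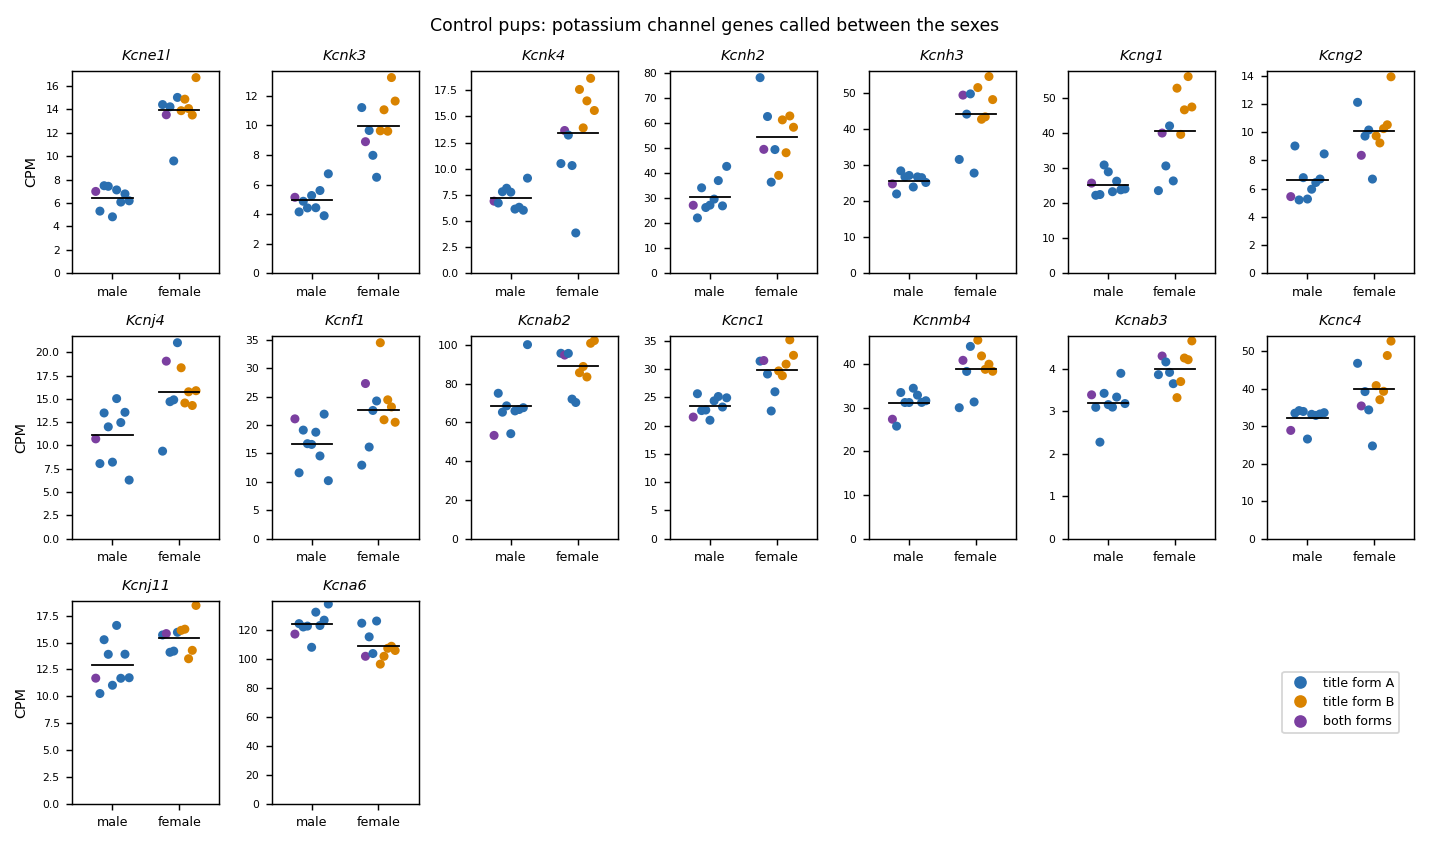
Levels of 16 members called between control females and control males (vertical axes, CPM), 1 point for each pup, with title form A in blue, form B in orange and a pup with both in purple. Kcne1l separates the sexes fully (9.58 to 16.7 against 4.82 to 7.47 CPM), whereas most others overlap.

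Title form was also examined among the 11 female control libraries, where it was read from the low line and not, as in males, from the last letter. Form B against form A gave 1 of 74 members (1.35%, against 1.43% of all genes) by edgeR's quasi-likelihood test (Benjamini-Hochberg adjusted). At an unadjusted p under 0.05 there were 14 members (18.9% against 18.7%), 13 of them higher in form B, among them Kcng1 (0.60, adjusted p = 0.0598 by the same test) and Kcnq5 (0.40, 0.144), with Kcnma1 at 0.50 and Kcnh1 at 0.47. No member was called when any of 6 libraries was left out (form A of CONF N2-4x and CONSC 11-3x, form B of CONF N1-8x, CONF N8-1x, CONSC 8-2x and CONSC 6-7x), whereas 5 members were called without the form A library of CONF N4-3x. The 2 libraries of this pup carry different dissection times in the labels, and without both of them 2 members were called. The neocortical list had 5 of 6 markers higher in form B, at a median log2 fold change of 0.64, and the striatal list 0 of 6, at -0.72.

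Partners and relatives of these channels that do not carry a channel symbol of the rule (27 listed, 25 tested) were read as well. They comprise surface and scaffold proteins such as Dpp6, Cntnap2 and Ank3, the calmodulins, the HCN channels and sodium pump subunits. None was called in any of the 9 exposed groups by edgeR's quasi-likelihood test, beside at most 0.195% of all genes. At an unadjusted p under 0.05 there were 1 to 10, beside 2% to 18.5% of all genes. Most, 10 of 25, were in Aro0.5 males, where the share of all genes was also the highest (18.5%). Within the window 2 (8%, against 4.96% of all genes) were called higher in Aro5 males, among them Pex5l, a trafficking subunit of HCN channels (log2 fold change 0.89, adjusted p = 0.0495 by the same test). Between control females and males 8 of 25 were called (32%, against 30.9% of all genes). Of these 6 were higher in females, among them Hcn2 (0.38), Hcn3 (0.68), Hcn4 (0.85), the KATP subunit Abcc8 (0.25) and Calm3 (0.23), and 2 were lower, Calm2 (-0.30) and Atp1b1 (-0.16), all by the same test. With title form A only, 2 were called higher and 2 lower (16%, against 11.7% of all genes).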

How the data were processed

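Total RNA of dorsal hippocampus was sequenced by the authors, who aligned reads to the rat build Rnor_6.0 and deposited raw counts per gene. STAR, featureCounts and kallisto are named in the submitters' processing notes, with no versions given. The counts of 2 libraries of a pup were summed, as was the case for male CONF N2-2y and female CONF N4-3x, although the labels give different dissection times for the libraries of the latter. Fits of title form used single libraries instead. Counts were tested with edgeR 4.0.16 (TMM normalisation, filterByExpr by group, quasi-likelihood test) in R 4.3.3, with p-values adjusted after Benjamini-Hochberg over all genes tested and calls at an adjusted p under 0.05; the procedure was tested on simulated data. All 74 members passed the filter on low counts, except that 73 did between CONF and CONSC males. DESeq2 1.42.0 and limma 3.58.1 served for alternatives, which further comprised other size factors, no filter, same-route controls, the dissection window, title form, litter as a block and leaving out single pups. Levels are CPM, and correlations used log2(CPM + 0.5). Pups are separate animals that in part share a litter, and p-values measure the spread between them. In the fits with title form as a covariate or of form B against A, both libraries of CONF N2-2y or N4-3x entered separately. Those p-values thus in part measure the spread between libraries of 1 pup.

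Members and lists were chosen with earlier results of these data known. Named with values were the members called in a comparison, the 3 with the smallest p in each, the member with the highest CPM of each subfamily, those next to the level threshold, and Kcnq3 and Kcnma1. Some genes that this rule or the marker and partner lists hold are not reported here by name, while counts, medians and sums include them. The litter correlation was -0.17 among control pups and -0.01 in the interaction fit, and could not be estimated in the fits of high-dose males or of females. Promoter sequences are RefSeq's (GRCr8), matched by symbol.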

Additional observations from a re-analysis of the deposited data

Results flagged for a closer look

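Of 77 sets of values, each of 1 gene in a group of 4 to 10 pups, examined for a value far from the others, 7 held one, where chance gives about 1 in 20 such groups. Kcnab2 reached 100 CPM in 1 male control, with the next at 75 CPM, and Kcnab3 was 2.27 CPM in 1 male control, with the next at 3.1 CPM. Kcnmb4 was 16.1 CPM in 1 BPA0.5 male, with the next at 24.9 CPM. Kcnq3 reached 52.1 CPM in 1 Aro5 female, with the next at 32.4 CPM. Kcnma1 reached 47.4 CPM in 1 BPA5 male, with the next at 33.7 CPM, and 35.6 CPM in 1 CPF3 female, with the next at 30.2 CPM. Kcne1l was 9.58 CPM in 1 female control, with the next at 13.5 CPM.

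The effect of Aro5 differed between females and males, by the interaction test of edgeR within the dissection window, by -2.48 for Kcnt2, -1.99 for Kcnq3, -2.13 for Kcnk9 and -1.08 for Kcnma1 on the log2 scale. These calls were lost when 1 of 14 pups was left out, and none of the members was called when all dissection times were used.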

How the results depend on the processing

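Limits first: Kcnh5, Kcnq1 and Kcna3 rest on few counts in a pup, title form cannot be told apart from high dose in males, and groups of 4 to 7 pups leave fold changes of single genes wide. In Aro5 males DESeq2 called 1 member (Kcnh5, whose membership these males in part decide) and the dissection window 7, where the main design called 0. Leaving out 1 pup gave 0 to 2 (1 without CONF N2-2y, 2 without Aro5 108-1y), and within the window 0 to 8, among them 3 without Aro5 116-6y. In the Aro5 interaction the window gave 4, both limma-voom fits within it 2 (with litter as a replicate block and with no litter term, both chosen after seeing the data) and, leaving out 1 pup, 0 to 8, among them 1 and 2. Leaving out pups within the window was chosen after seeing the data; leaving out control pups in the interaction over all times was not run. In Aro0.5 males leaving out 1 pup gave 0 to 3, with 3 (Kcne4, Kcnj13 and Kcnk3) without CONSC 8-4y. Counts on leaving out 1 pup or library are given without the share of all genes, unless stated. A change in members thus cannot be told there from a change in the whole fit.

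Between female and male controls 8 members were called with title form A only (11.7% of all genes) and 21 by DESeq2 (32.6% of all genes). With title form as a covariate there were 14 (18.9%), beside 2967 of 15704 genes. Within the window there were 16, for which no share of all genes is given. Leaving out 1 pup gave 18 to 30, with 30 without CONSC 9-1x (36.5% of all genes). Limma-voom called 18 with no litter term (chosen after seeing the data) and 16 with litter as a replicate block. In the interactions over all times it called 0 with and without the block. Among high-dose and control males, and among females, 1 pair of pups shared a litter, so that no block could be fitted there. Form B against A gave 2 by DESeq2, beside 858 of 16577 genes. By edgeR it gave 2 without pup N4-3x and 0 to 5 on leaving out 1 library. In males title form rests on 1 control library of form B, and its estimate on controls of both sexes assumes that form means the same in both. In BPA5 males Kcnh5 turned to -0.024 with title form as a covariate, and Kcnk4 to -0.088 with form estimated on controls of both sexes, while Kcnq1 in the CPF3 interaction turned to -0.080 within the window; the causes were not tested. Of the other alternatives, 445 counts of members stayed within 1.5 times, and 1547 log2 changes of named members kept direction and side of the threshold, beside 16 that gained and 38 that lost a call.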

Other observations

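Some members lie side by side in the genome. By RefSeq's order Kcna3 and Kcna2 have 0 genes between them, Kcnj9 and Kcnj10 have 1, Kcna5 and Kcna1 have 1, and Kcna1 and Kcna6, as well as Kcnj16 and Kcnj2, have 2. In Aro5 males within the dissection window Kcna3 was called higher, with a log2 fold change of 1.28, by edgeR's quasi-likelihood test. Kcna6 was the member with the smallest p in CPF3 males and the sole member called lower in control females.

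Like all other members, the glial members were not called by edgeR in any exposed group over all dissection times. Kcnj10, the main inward rectifier of astrocytes, had a mean of 19.8 CPM and Kcnj16, its partner, 9.03 CPM over the 64 pups. In CPF3 males Kcnj10 had a log2 fold change of -0.27, and in Aro0.5 males Kcnj16 had 0.47, both at an unadjusted p under 0.05 by edgeR's quasi-likelihood test. Of the astrocyte markers 0 of 5 were higher in CPF3 males, at a median of -0.175. Kcnj16 followed the thalamic list (r = 0.698, rho = 0.662), of which 5 of 6 markers were higher in Aro0.5 males, at a median of 0.57. The part of these lists in the 2 values was not tested.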
